A study of Mus musculus with 12 samples.

Results

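Immediate early response genes are transcribed within minutes when a growth factor, serum or a stress reaches a cell, without new protein synthesis, and their messages are short-lived. The extracellular signal-regulated kinases carry many of these signals to the nucleus, where they act on serum response factor with its Elk partners and on CREB, already bound at the promoters. Most of the products are transcription factors, and others, such as Dusp1, switch the signal off again. In germline stem cells the growth factors of the culture signal through the same kinases, and levels of these genes are also known to move with handling of a culture before lysis. The 10 genes described here were chosen by name, as the rows of the count table whose RefSeq accession maps to *Fos*, *Fosb*, *Jun*, *Junb*, *Egr1*, *Egr2*, *Egr3*, *Ier2*, *Dusp1* or *Atf3*. They are 10 of the 24813 genes with a symbol in the table, and 14 of its 41388 transcripts.

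The libraries came from mouse female germline stem cells (FGSCs) of the C57BL/6 strain, a line isolated from ovaries with an antibody against MVH and used after many passages. The study changed the level of Stella (*Dppa3*), a maternal factor linked to DNA methylation, and measured messenger RNA in 4 groups of 3 libraries. KO was 1 clone of cells in which lentivirus-delivered CRISPR guides had knocked out *Stella*, and KO-con was the control labelled for it, whose vector and selection the sources used here do not give. Over was a line infected with a lentivirus that expresses *Stella* and selected with puromycin, and Over-con carried the empty lentiviral vector. All 4 groups shared the same culture, on mitotically inactivated STO fibroblasts in serum with leukemia inhibitory factor, EGF, bFGF and GDNF, so the ligands that induce these genes were present throughout. The age of the donor animals is not given in the labels, nor is it stated that the libraries of a group came from separate cultures or that feeders were removed before lysis. A p-value here therefore measures the spread between libraries, which may be technical.

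Library totals ran from 5611846 to 12866545 counts, with Over-con replicate 2 the shallowest, and 3 counts stand for 0.230 to 0.528 CPM, counts scaled to a common library size. *Dppa3* had 347, 371 and 285 counts in Over and 0 in the 9 other libraries, KO-con included, so the labels of KO and KO-con cannot be checked on it. Of 10 germ cell markers, 4 exceeded 3 counts in at least 1 library, and *Ddx4*, the gene of MVH, was at 0 in all 12 libraries, as was *Tfap2c*. Among markers of other cells, *Pdgfrb* (fibroblasts), *Tpsab1*, *Fcer1a* and *Ms4a2* (mast cells) and *Adgre1* and *Itgam* (macrophages) were at 0 everywhere. Some of the zeros need care: *Ddx4* and *Gapdh*, which every cell uses, are both listed with 2 transcripts, and *Gapdh* itself held at most 4 counts per transcript in any library. The zeros of *Tfap2c*, *Pdgfrb*, *Ms4a2*, *Adgre1* and *Itgam*, each listed with 2 or more transcripts, need the same care. *Tpsab1*, *Fcer1a* and *Dppa3* are listed with 1 transcript each, so this caution does not cover their zeros. A mean of 1 CPM or more was reached by 42.4% of genes listed with 1 transcript and by 22.9% of genes listed with more, and the former held 95.7% of all counts.

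The members are compact genes. In the mm9 annotation all 10 have 4 or fewer exons, a property of 22.8% of the 7293 expressed genes compared, whose median is 9 exons and a span of 21776 bases. *Jun* (chr4:94715725-94718913, minus strand), *Junb* (chr8:87500811-87502617, minus) and *Ier2* (chr8:87185230-87186751, minus) consist of 1 exon. *Fos* (chr12:86814840-86818223, plus) and *Dusp1* (chr17:26642535-26645464, minus) have 4 exons each. They were the members whose 3′ UTR holds the AU-rich nonamer TTATTTATT, found in 7.6% of the genes compared. *Atf3* (chr1:192994175-193007219, minus) is the longest of the 10 at 13045 bases. *Egr1*, with 2 exons on the plus strand of chromosome 18, overlaps *Gm17507* on the other strand and *Jun* overlaps the noncoding *BC042782* on the other strand. The kit keeps strand but the strand setting of the counting was not stated, so reads of these overlapping pairs may not be told apart.

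Promoter sequences of 7 members were in the RefSeq set (GRCm38.p6, a short window around each transcription start), which has 32851 entries. The letters of the CRE core, TGACG, bound by CREB and its relatives, stood in at least 1 start window of 6 of the 7 (*Fos*, *Fosb*, *Junb*, *Egr2*, *Dusp1* and *Atf3*), against 20.8% of all windows, with both strands searched. The full palindrome TGACGTCA, which contains the core, was in *Dusp1* alone of the 7 and in 1.79% of all windows. A CArG box, the element of serum response factor, was in windows of *Egr2* alone of the 7 and in 1.63% of all. Sites farther upstream were not searched, and *Egr1*, *Egr3* and *Ier2* had no entry, so a CArG box elsewhere cannot be judged. The related 8-mer TGACATCA, through which Jun can act on its own gene, was in *Jun* alone and in 3.62% of all, while TGANTCA was in none of the 7 and in 7.81% of all. Members with several starts had several windows, which raises their chance of a match, and a match of letters is no evidence of binding. The 150 bases upstream of the start are shown for 5 members, 5′ to 3′ on the strand of the gene, because they carry these elements, which are in capitals.

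*Fos*, chr12:85473740-85473889, plus strand, TGACG and the TATA box TATAAA in capitals: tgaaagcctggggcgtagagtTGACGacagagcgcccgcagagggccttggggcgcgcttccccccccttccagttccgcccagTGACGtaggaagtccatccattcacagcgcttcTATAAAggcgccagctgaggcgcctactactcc
*Jun*, chr4:95052223-95052372, minus strand, TGACATCA in capitals: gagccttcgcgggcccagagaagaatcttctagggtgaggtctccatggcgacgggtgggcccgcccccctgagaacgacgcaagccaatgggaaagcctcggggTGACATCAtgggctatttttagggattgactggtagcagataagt
*Junb*, chr8:84978749-84978898, minus strand, TGACG in capitals: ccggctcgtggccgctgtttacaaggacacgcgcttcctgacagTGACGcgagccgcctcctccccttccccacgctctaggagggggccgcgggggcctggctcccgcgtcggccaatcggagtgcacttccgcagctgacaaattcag
*Egr2*, chr10:67537719-67537868, plus strand, the CArG box and TGACG of either strand in capitals: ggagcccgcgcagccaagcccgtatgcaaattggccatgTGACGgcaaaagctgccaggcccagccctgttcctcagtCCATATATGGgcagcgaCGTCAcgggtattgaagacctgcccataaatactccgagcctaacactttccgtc
*Dusp1*, chr17:26508473-26508622, minus strand, TGACGTCA in capitals: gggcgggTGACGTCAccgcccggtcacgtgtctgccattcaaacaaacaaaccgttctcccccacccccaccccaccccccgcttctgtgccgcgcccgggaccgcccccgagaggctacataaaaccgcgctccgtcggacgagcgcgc

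Of the 10 genes, 7 passed the filter on low counts. *Jun* and *Junb*, Jun-family subunits of the AP-1 dimer, had the highest levels per length, 56.8 and 54.1 CPM per kilobase as means of 12 libraries. Their relative *Jund*, which is no member, had 0 counts on 2 listed transcripts, so its level cannot be read. *Atf3*, a stress-induced bZIP factor that can pair with Jun, stood at 34.7, *Ier2*, a small nuclear protein of uncertain biochemical role, at 31.5, and *Egr1*, a zinc-finger activator, at 31.05. *Dusp1*, the phosphatase that dephosphorylates MAP kinases, stood at 21.8. *Fos*, the classical partner of Jun, stood far below them at 2.945 CPM per kilobase. Its relative *Fosl2*, named here after its values were seen, stood at 55.8 and *Fosl1* at 11.5, so *Fos* was the lowest of the 3 Fos-family genes that had counts.

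The 3 other members were at or near 0. Both *Fosb* transcripts had 0 counts in every library, which allows up to 0.528 CPM in the shallowest library and 0.230 in the deepest. *Egr2* had 1 to 6 counts per library on 1 of its 2 transcripts, 47 in all. *Egr3* had 5 counts over 3 transcripts and 12 libraries. These are exactly the members listed with 2 or more transcripts, as *Gapdh* is, so their low counts cannot be read as absence of expression.

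**Figure D1:**
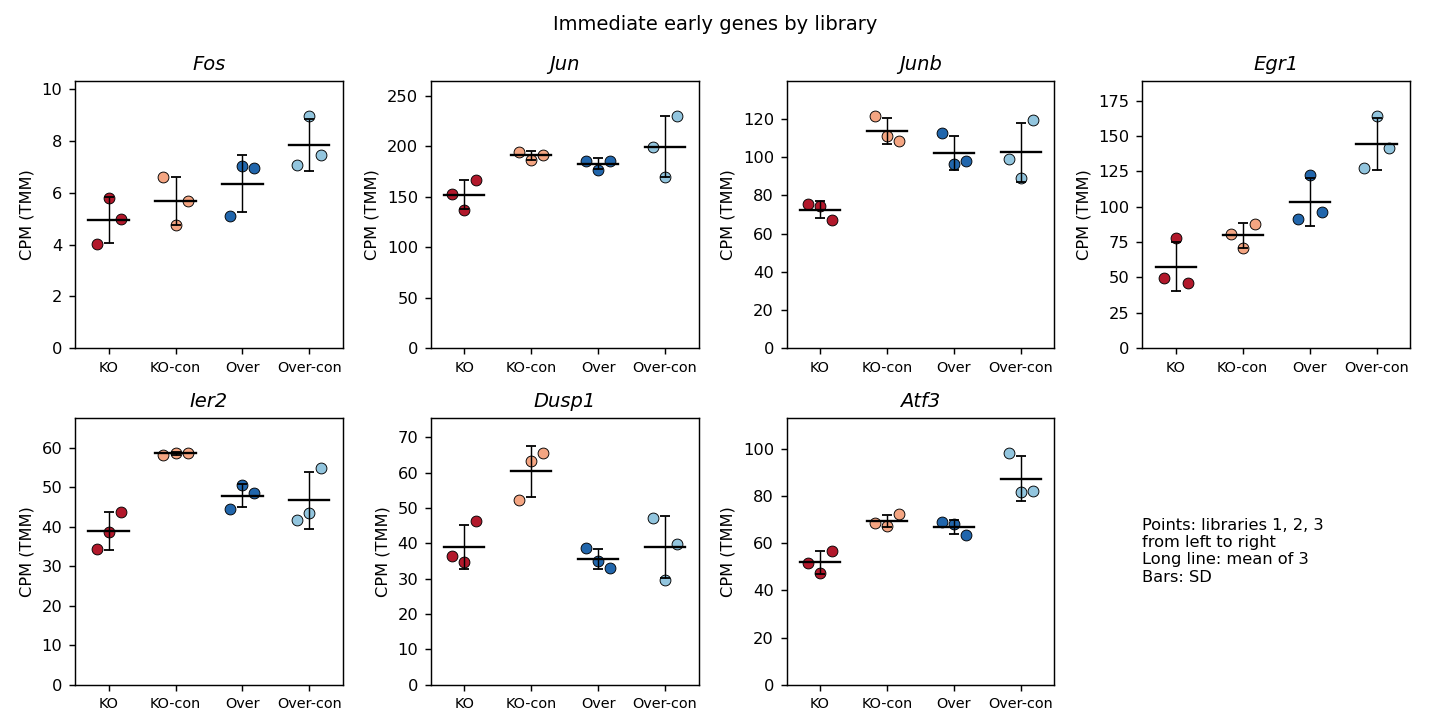
Level of the 7 measured members in each library (points, CPM after TMM scaling, linear axes from 0) with the group mean and SD (n = 3 libraries per group). KO has the lowest mean for 6 members, and *Egr1* has its highest mean, 144 CPM, in Over-con.

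Levels are given next member by member, in CPM after TMM scaling, with the 3 libraries of each group in replicate order. *Junb* was at 75.45, 74.3 and 67.2 CPM in KO and at 122, 111 and 108 in KO-con. It was at 112, 96.3 and 98.2 in Over and at 99.2, 88.9 and 119 in Over-con. The 3 KO libraries lay below all 9 others. Between KO-con, Over and Over-con the ranges overlapped, so the order of these 3 groups is not resolved. The group means were 72.3 ± 4.45 (KO), 114 ± 7.01 (KO-con), 102 ± 8.81 (Over) and 102.5 ± 15.4 (Over-con; SD, n = 3 in each).

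*Jun* was likewise lowest in KO, but its highest mean was in Over-con rather than KO-con. Its libraries were at 153, 137 and 166 CPM in KO and at 195, 186.5 and 191 in KO-con. They were at 186, 176 and 185.5 in Over and at 199, 170 and 230 in Over-con. KO lay below all other groups, while Over-con, which spread from 170 to 230, overlapped both Over and KO-con. KO-con lay just above Over. *Ier2* stood at 34.3, 38.6 and 43.7 CPM in KO and at 58.1, 58.7 and 58.8 in KO-con, the tightest group of all (58.5 ± 0.353, SD, n = 3). It stood at 44.6, 50.5 and 48.5 in Over and at 41.7, 43.5 and 54.9 in Over-con. The KO-con libraries lay above all 9 others, and KO overlapped Over-con but not Over.

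*Atf3* and *Egr1* had their highest level in Over-con. *Atf3* was at 51.7, 47.3 and 56.9 CPM in KO and at 68.4, 67.4 and 72.5 in KO-con. It was at 68.9, 68.0 and 63.6 in Over and at 98.4, 81.5 and 82.1 in Over-con. KO was lowest and Over-con highest, with neither overlapping any other group, and KO-con and Over overlapped. *Egr1* was at 49.5, 77.5 and 46.0 CPM in KO and at 80.8, 70.5 and 87.8 in KO-con. It was at 90.95, 122 and 96.55 in Over and at 127, 164 and 141 in Over-con. Its level was higher in each group of that order, and the overlapping neighbours were KO and KO-con, through KO replicate 2 at 77.5. The ratio of the highest to the lowest group mean was 2.501 for *Egr1*, the widest of the 7, and 1.31 for *Jun*, the narrowest.

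*Fos* had its group means in the same order as *Egr1*, with more overlap, and *Dusp1* did not. *Fos* was at 4.03, 5.81 and 4.99 CPM in KO and at 6.62, 4.74 and 5.695 in KO-con, resting on 35 to 67 counts per library. It was at 5.09, 7.045 and 6.95 in Over and at 7.07, 8.98 and 7.47 in Over-con. Over-con lay above the other groups, which overlapped each other. *Dusp1* was at 36.3, 34.6 and 46.2 CPM in KO and at 52.1, 63.2 and 65.7 in KO-con. It was at 38.7, 34.9 and 33.1 in Over and at 47.1, 29.75 and 39.9 in Over-con. Only KO-con stood clear, above all 9 other libraries, and it was the one member whose lowest mean was in Over. Over the 7 members, KO had the lowest mean for 6 and Over for 1, while Over-con had the highest mean for 4 and KO-con for 3.

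KO against KO-con was the study's comparison for loss of *Stella*. *Dppa3* had 0 counts in both groups, so no loss of its RNA can be seen here. KO was 1 clone, so an effect of the knockout cannot be told apart from a difference between this clone and its control. *Junb*, *Dusp1*, *Ier2*, *Atf3* and *Jun* fell in KO, which is 5 of the 7 members tested, and none rose. All transcripts tested were called in 11.8% of cases in either direction and lower in 5.96%. *Junb* fell by 0.65 on the log2 scale (SE 0.080, adjusted p = 6.73e-05 by edgeR's quasi-likelihood test with Benjamini-Hochberg adjustment over 9457 transcripts). *Dusp1* fell by 0.62 (SE 0.118, adjusted p = 0.00261 by edgeR) and *Ier2* by 0.58 (SE 0.097, adjusted p = 0.001). *Atf3* fell by 0.41 (SE 0.089, adjusted p = 0.00649 by edgeR) and *Jun* by 0.32 (SE 0.077, adjusted p = 0.0123). None of the 7 reached an absolute log2 fold change of 1, the study's second threshold. The median over the 7 was -0.45, against 0.00669 over all transcripts tested.

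*Egr1* and *Fos* were not called. The *Egr1* log2 fold change was -0.45 (SE 0.151, 95% interval -0.77 to -0.13, adjusted p = 0.0657 by edgeR). Without KO replicate 2, at 77.5 CPM, it was -0.73 with an adjusted p of 0.00173 by edgeR. *Fos* was at -0.17 (SE 0.213, interval -0.63 to 0.28, adjusted p = 0.676 by edgeR), so a fall as large as that of *Jun* cannot be told from no change at its counts. The call of *Jun* ended without KO replicate 2 (adjusted p = 0.077 by edgeR) or without KO-con replicate 1 (0.0664).

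Markers of other cells moved with this comparison too. Mast cell markers, of which 4 of 10 exceeded 3 counts, summed to 1148 to 1228 CPM in KO and to 370.8 to 430.3 in KO-con, nearly all of it *Cpa3*, a secretory granule protease. The summed macrophage markers were at 237 to 279 CPM in KO and 190.5 to 210 in KO-con. Most of this sum was *Fcgr1* (204 against 158 CPM) with *Cd68* (39.4 against 28.5). *Cd14* was lower in KO, at 4.59 against 6.54 CPM, and was not called. The feeder fibroblast markers overlapped, at 1029 to 1434 CPM and 1149 to 1331. The part of any of these in the members' levels was not tested, and in bulk RNA fewer cells of a type cannot be told apart from less RNA per cell.

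**Figure D2:**
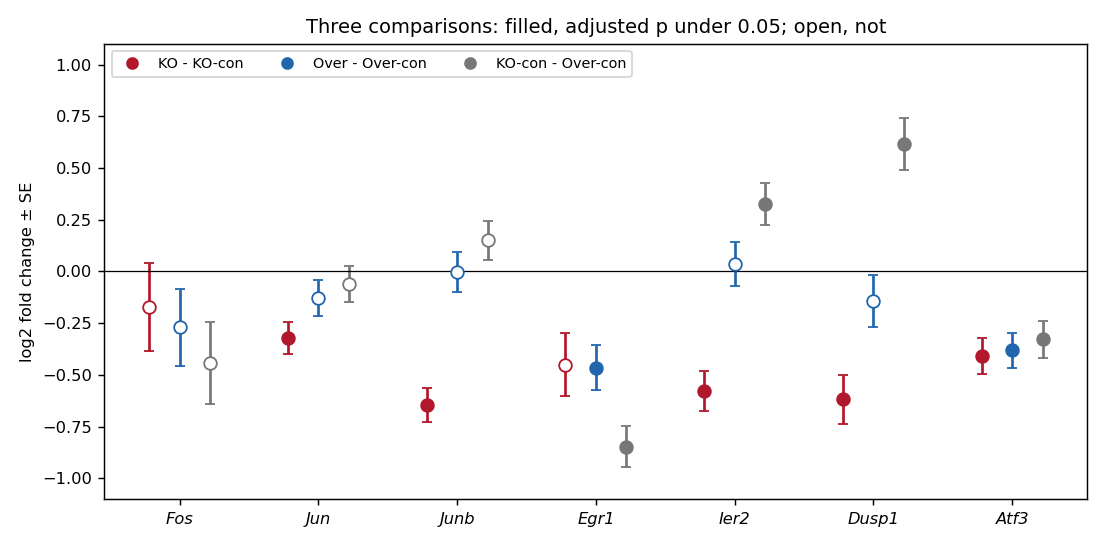
Log2 fold change with its SE of the 7 members for KO, for Over, each set against its control, and for KO-con set against Over-con (filled points, adjusted p under 0.05; open points, not called). All 7 KO values lie below 0, from -0.65 for *Junb* to -0.17 for *Fos*, while the values of Over against Over-con run from -0.465 to 0.04.

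Over against Over-con was the study's comparison for excess *Stella*. *Egr1* and *Atf3* were lower in Over, 2 of the 7 members tested, and none was higher. All transcripts tested were called in 1.65% of cases, and lower in 0.883%. *Egr1* had a log2 fold change of -0.465 (SE 0.108, adjusted p = 0.04 by edgeR) and *Atf3* of -0.38 (SE 0.084, adjusted p = 0.0336). Both calls depended on single libraries: leaving out Over replicate 1, Over replicate 3 or Over-con replicate 1 left 0 of the 7 called, and leaving out Over replicate 2 or Over-con replicate 2 left 1. *Junb* was at -0.003 (SE 0.096, interval -0.21 to 0.20, adjusted p = 0.993 by edgeR), and *Ier2* at 0.04 (SE 0.105, interval -0.19 to 0.26). *Dusp1* was at -0.14, *Jun* at -0.13 and *Fos* at -0.27, none called. Feeder fibroblast markers summed to 1404 to 1466 CPM in Over and 1581 to 1755 in Over-con, mast cell markers to 646.3 to 668 and 759 to 863, and macrophage markers to 240 to 247 and 223 to 247. The mast cell sum was nearly all *Cpa3*, at 648.7 CPM in Over and 805.6 in Over-con. *Hdc* (2.90 against 1.58 CPM), *Gata2* (5.065 against 3.08) and *Cma1* (0.608 against 0.349) had higher means in Over. Neither *Hdc* nor *Gata2* was called, and *Cma1* was not tested. The part of these markers in the fall of *Egr1* and *Atf3* was not tested.

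The 2 control groups differed from each other at these genes. KO-con had less *Egr1* than Over-con by 0.85 on the log2 scale (SE 0.099, adjusted p = 3.3e-06 by edgeR) and less *Atf3* by 0.33 (SE 0.089, adjusted p = 0.0142). It had more *Dusp1* by 0.62 (SE 0.126, adjusted p = 0.00153 by edgeR) and more *Ier2* by 0.33 (SE 0.102, adjusted p = 0.0336). These are 4 of 7 members, against 16.3% of all transcripts tested. Each line was therefore tested against its own control alone. *Atf3* lost its call without KO-con replicate 1 or 2 or Over-con replicate 1, and *Ier2* without any of 5 of the 6 libraries (adjusted p up to 0.216 by edgeR). The sums of all 4 marker lists were lower in KO-con than in Over-con too, with no overlap. They were at 1149 to 1331 against 1581 to 1755 CPM for feeder fibroblasts and at 370.8 to 430.3 against 759 to 863 for mast cells. They were at 190.5 to 210 against 223 to 247 for macrophages and at 116 to 141 against 151 to 166.5 for germ cells. The germ cell sum was nearly all *Ifitm3*, the mast cell sum nearly all *Cpa3* and the macrophage sum mostly *Fcgr1* with *Cd68*. Several low-level germ cell markers were higher in KO-con, *Prdm1* (1.85 against 0.674 CPM) and *Dnd1* (2.385 against 1.53) among them. So were the means of the mast cell markers *Cma1* (1.12 against 0.349 CPM), *Hdc* (1.70 against 1.58) and *Gata2* (3.89 against 3.08). Of the low-level markers named here only *Prdm1* was called (adjusted p = 0.0175 by edgeR), and *Cma1* was not tested. The sums therefore do not speak for every marker of a list, and the part of these markers in the members' differences was not tested.

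The change in KO and the change in Over were compared directly, in 1 fit over all 12 libraries. *Junb* and *Ier2* differed, with a difference of log2 changes of -0.64 (SE 0.134, adjusted p = 0.00425 by edgeR) and -0.615 (SE 0.148, adjusted p = 0.0124), 2 of 7 members against 8.64% of all transcripts in either direction and 4.52% in the lower. Both fell in KO, and neither was called in Over. *Dusp1* was at -0.48 (SE 0.193), which was not called. *Jun* was at -0.19, *Fos* at 0.10, *Egr1* at 0.02 (95% interval -0.43 to 0.46) and *Atf3* at -0.03 (-0.29 to 0.23), so for *Egr1* and *Atf3* a difference between the KO and Over effects was not resolved. *Atf3* was called lower in both comparisons and *Egr1* in Over alone.

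Counted over all 6 pairs of groups, 27 of 42 member and pair combinations had no overlap between the 3 libraries of one group and the 3 of the other. KO and KO-con separated 5 of 7 members, with 29.9% of all transcripts separated, KO and Over 5 of 7 (29.2%), and KO and Over-con 5 of 7 (23.8%), with KO lower in each. KO-con and Over separated 4 (34.3%), of which 3 were higher in KO-con. KO-con and Over-con separated 5 (31%), and Over and Over-con 3 (18.9%), each higher in Over-con. Exact permutation of 3 libraries against 3 has 0.1 as its smallest two-sided p.

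**Figure D3:**
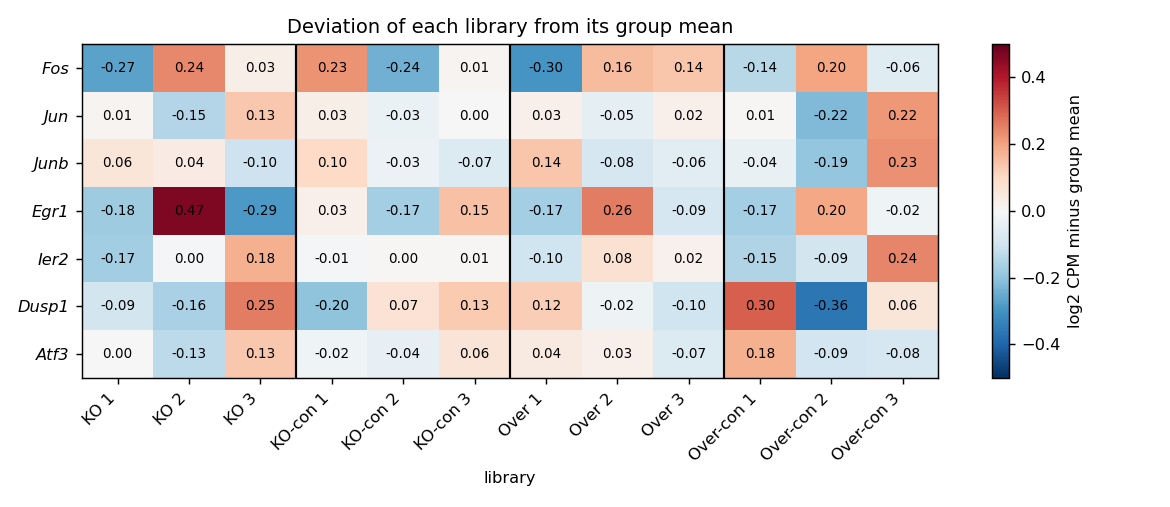
Deviation of each library from its group mean for the 7 members, in log2 units (4 groups of 3 libraries). The largest, 0.465 for *Egr1* in KO replicate 2, and the -0.36 of *Dusp1* in Over-con replicate 2 are single entries of the map, and in no library do all 7 members deviate in 1 direction.

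Handling before lysis could move these genes together between the libraries of a group, so their deviations from the group mean were laid side by side. The number of members above their group mean ran from 2 to 6 of 7 per library, and the mean deviation from -0.091 to 0.083 log2 units. Over the 21 pairs of members, the number of libraries in which both deviated in the same direction ran from 3 to 10 of 12, with a median of 6, and 13 pairs lay between 5 and 8. The highest was *Fos* with *Egr1*, at 10. The lowest, at 3, was shared by *Fos* with *Dusp1*, *Jun* with *Egr1*, *Junb* with *Ier2* and *Egr1* with *Dusp1*. Deviations within a group sum to about 0, so the 12 libraries are not independent points.

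The spread itself was unequal among the members. The biological coefficient of variation, edgeR's estimate of the relative spread between libraries of a group, was 0.128 for *Egr1*, against 0.0710 for transcripts of similar level, which puts *Egr1* at percentile 98.6 of 9903 transcripts for this ratio. *Dusp1*, at 0.110, was at percentile 93.8. *Jun* (0.0770), *Junb* (0.0793) and *Ier2* (0.0822) lay between percentiles 72 and 79.1, *Atf3* (0.0708) at 55.4 and *Fos* (0.112) at 46. *Egr1* and *Dusp1* thus varied more within groups than most transcripts of their level, and the call of *Egr1* changed with 1 library.

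**Figure D4:**
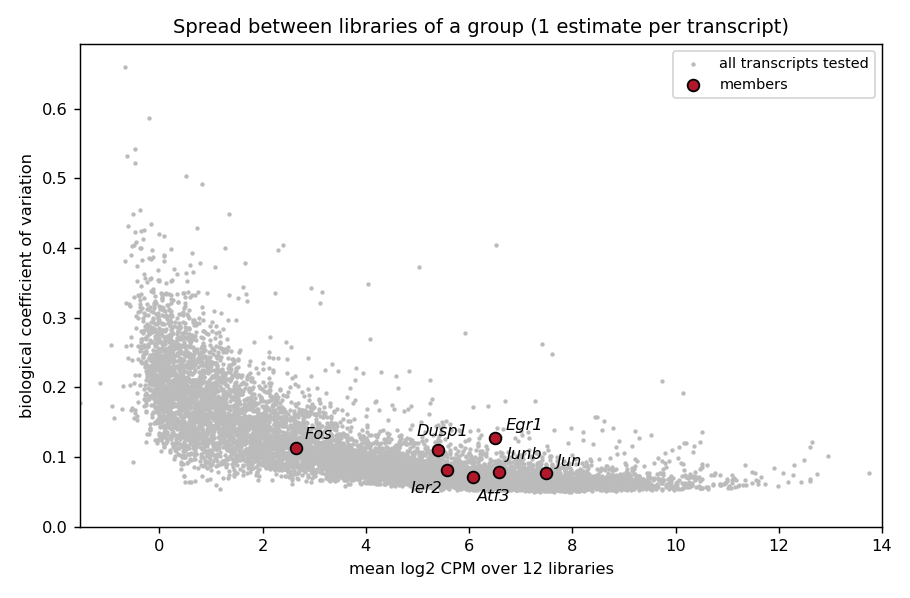
Biological coefficient of variation against mean log2 CPM, 1 point per transcript (9903 tested over 12 libraries) with the 7 members marked. *Egr1*, at 0.128, and *Dusp1*, at 0.110, lie above most transcripts of similar level, and *Fos*, at 0.112, lies within the cloud.

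Across the 12 libraries the members did not share 1 profile. In log2 CPM centred on each gene's mean, the Euclidean distance was smallest between *Jun* and *Junb* (0.550) and largest between *Egr1* and *Dusp1* (2.53). Among 1674 variable transcripts, those nearest to the members' mean profile were *Ostc*, a subunit of the oligosaccharyltransferase complex (0.318), *Zfp36l1*, an RNA-binding protein that promotes decay of AU-rich messages (0.318), *Vopp1* (0.326), *Ptprj*, a receptor phosphatase (0.350), and *Cd69* (0.351), with a median distance of 1.25 over all candidates. Nearest to *Fos* were *Arsj* (0.4765), *Kcnd1* (0.491), *Btg2* (0.499), *Ston2* (0.508) and *A330074K22Rik* (0.532).

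Other immediate early genes form a list of 28, of which 20 genes (21 transcripts) were tested in KO. There 7 fell and 1 rose, where 11.8% of all transcripts were called in either direction and 5.96% lower. The list's median was -0.256, against 0.00669 over all transcripts. *Zfp36l1* fell by 0.60 (SE 0.075, adjusted p = 7.36e-05 by edgeR), from 233 to 152 CPM, and *Ier5*, a relative of *Ier2*, fell by 0.41 (SE 0.077, adjusted p = 0.0023). *Klf4*, a pluripotency and differentiation factor, rose by 0.44 (SE 0.082, adjusted p = 0.00203 by edgeR). The others that fell, named after their values were seen, were *Zfp36*, *Fosl2*, *Gem*, *Klf2* and *Klf6*, by 0.22 to 0.61. Without KO replicate 2 or KO-con replicate 1 the number called was 5. In Over 1 of 21 was called, against 1.65% of all transcripts in either direction and 0.883% lower. This was *Plk2*, a polo-like kinase, which fell by 0.35 (adjusted p = 0.00645 by edgeR), and the list's median was -0.09. Between the controls 4 of 21 transcripts were called, near the 16.3% of all transcripts, with *Ier5* and *Klf2* higher and *Btg2* lower in KO-con.

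**Figure D5:**
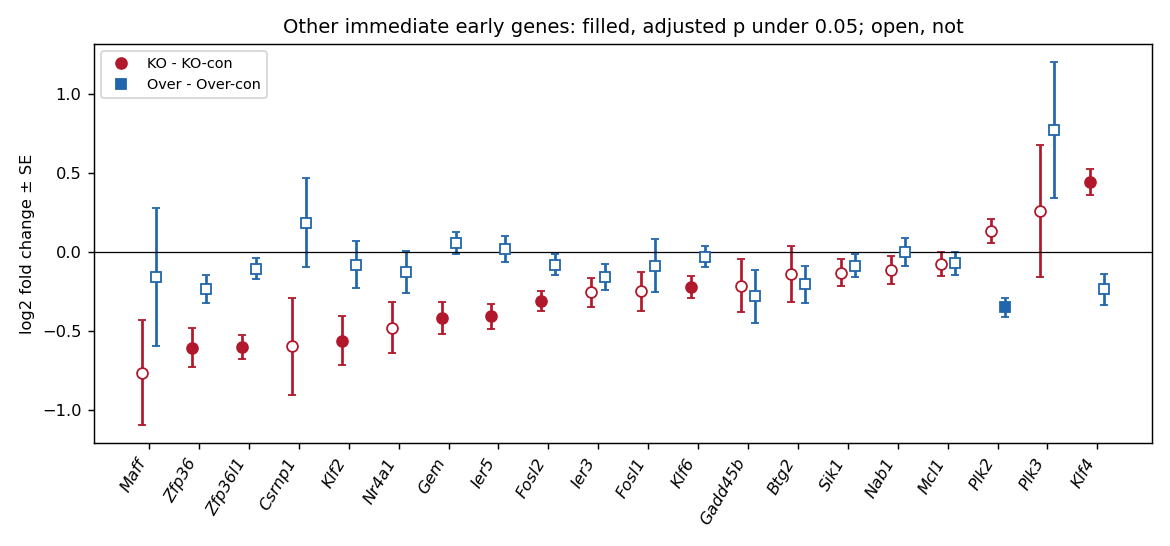
Log2 fold change with its SE of the other immediate early genes in KO against KO-con and in Over against Over-con (filled points, adjusted p under 0.05). In KO, 7 transcripts lie below 0 and are filled and 1, *Klf4*, lies above 0 and is filled.

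Of the genes that signal to the members or beside them, 7 of 59 tested transcripts were called in KO, a share near the 11.8% of all transcripts, so the calls that follow are values of single genes and not a result about these lists. Of 13 tested genes of the MAPK cascade and its promoter-binding factors, *Mapk3*, which encodes the kinase ERK1, rose by 0.28 (SE 0.078, adjusted p = 0.0283 by edgeR) and none fell. *Srf* was at -0.20 (adjusted p = 0.237 by edgeR). Of 13 feedback inhibitors, *Dusp5* fell by 0.59 (adjusted p = 0.00622 by edgeR) and *Dusp4* rose by 0.395 (adjusted p = 0.0146). Among 5 tested transcripts of 4 genes listed as receptors for the culture's ligands, 1 *Pdgfra* transcript, at 1.01 against 2.965 CPM, fell by 1.56 (SE 0.362, adjusted p = 0.00998 by edgeR). The other tested *Pdgfra* transcript was at -0.41 (adjusted p = 0.543 by edgeR). PDGF is not among the growth factors named for this culture. Of 9 transcripts of AP-1's bZIP partners, *Mafk* fell by 0.28 (adjusted p = 0.0163 by edgeR). Of 12 genes of the integrated stress response, *Ddit4*, an inhibitor of mTORC1, fell by 0.70 (adjusted p = 0.000888 by edgeR) and *Sesn2*, a stress-induced regulator of the same pathway, by 0.29 (adjusted p = 0.0081). Of 8 heat shock genes, 0 were called by edgeR, DESeq2 or limma-voom, and 1 had an unadjusted p under 0.05. In Over, 0 of the 59 transcripts in these 6 lists were called by the same 3 tools, and 4 had an unadjusted p under 0.05.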

How the data were processed

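RNA was measured in 12 libraries, made with a stranded mRNA kit from total RNA. After trimming and HISAT2 alignment to mm9, the authors deposited raw counts per RefSeq transcript; the counter's version, its strand setting and its handling of reads shared by transcripts are not given in the sources used here. Symbols came from RefSeq tables and matched 41186 of 41388 transcripts (99.5%). The 10 members and all gene lists were chosen with earlier results of these data known, so no list gives independent support.

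Counts were tested with edgeR 4.0.16 in R 4.3.3 (TMM factors, filterByExpr, glmQLFit and glmQLFTest, Benjamini-Hochberg adjustment over all transcripts tested), each comparison on its own 6 libraries, and the difference between the KO and Over effects in 1 fit of 12. The threshold was an adjusted p of 0.05, with an absolute log2 fold change of 1 beside it. The authors used DESeq2 (here 1.42.0, as an alternative, with limma 3.58.1). CPM are TMM-scaled, and CPM per kilobase uses the mm9 annotation's transcript length. Intervals on log2 fold changes are 95% intervals from edgeR's degrees of freedom. Likeness is the Euclidean distance of centred log2 CPM with a prior count of 2, over transcripts with a mean of at least 5 CPM and an SD at or above the 75th percentile. The floor of 3 counts covers counting error only. Most genes were named by rule: the members, at most 3 called genes per list and comparison by adjusted p, the 5 nearest transcripts, *Dppa3* and markers at 0. Some were named outside this rule, among them *Srf*, *Jund* and markers that were not called, such as *Dnd1*, *Gata2* and *Cd14*. Genes said to be named after their values were seen are outside it too. The test was run on simulated counts first. No library pair agreed within sampling noise (lowest chi-square divided by its degrees of freedom, 2.02). Alternatives were other scalings, filters, tools, a replicate block, counts summed per gene and leaving out each library.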

Additional observations from a re-analysis of the deposited data

Results flagged for a closer look

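*Junb* and *Ier2* drew attention because the change in KO differed from the change in Over by the test of that difference over all 12 libraries. The difference of log2 changes was -0.643 for *Junb* (adjusted p = 0.00425 by edgeR) and -0.615 for *Ier2* (adjusted p = 0.0124 by edgeR). In each case all 3 KO libraries lay below all 3 KO-con libraries, while Over and Over-con overlapped. The difference was below 0 and called under all 21 alternatives for both, between -0.77 and -0.56 for *Junb* and between -0.76 and -0.53 for *Ier2*. For *Ier2* the KO-con group stood above Over-con as well, by 0.33.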

How the results depend on the processing

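In KO, *Junb*, *Ier2*, *Dusp1* and *Atf3* were called lower in all 16 alternatives. The members called numbered 5 or 6 (6 with no filter and under the replicate block, which added *Egr1*) and 4 to 5 when a library was left out. In Over, 1 rather than 2 was called with upper-quartile factors, under the replicate block and in 1 fit of all 12 libraries, and 0 to 2 when a library was left out. For the controls the latter range was 2 to 5, with 2 without KO-con replicate 1 or 2 or Over-con replicate 1, and for the difference of effects 2 to 3. For the other immediate early genes in KO, checked by alternatives added after seeing the data, it was 5 to 9. No alternative put any of the 7 past an absolute log2 fold change of 1.

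Signs changed for these values, none of which was called. *Junb* in Over was at 0.005 with upper-quartile factors, 0.015 with library totals, 0.014 with no filter, 0.004 by DESeq2 and 0.01 with the replicate block, and between -0.082 and 0.121 when a library was left out. In the difference of effects *Egr1* was at 0 with at least 10 counts in every library, -0.015 by limma-voom and -0.007 with the replicate block, and between -0.279 and 0.16 without a library. The ranges without a library were -0.275 to 0.017 for *Dusp1* and -0.046 to 0.182 for *Ier2* in Over, -0.164 to 0.045 for *Jun* between the controls, and -0.051 to 0.226 for *Fos* and -0.127 to 0.022 for *Atf3* in the difference of effects. The causes were not tested. Of the 42 member and pair combinations, 25 to 26 separated under other scalings, against 27.

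Replicate numbers did not pair the libraries, since correlations of same-numbered deviations ran from -0.16 to 0.042. With the replicate block, 6 members were called in KO, 1 in Over, 4 between the controls and 2 in the difference of effects. Depth limits *Fos*, which rests on 35 to 92 counts per library, and the counting of genes with several transcripts limits *Fosb*, *Egr2* and *Egr3*.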

Other observations

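*Cpa3* and some macrophage markers, *Fcgr1* and *Cd68*, also differed between groups. *Cpa3* rose in KO by 1.55 on the log2 scale (adjusted p = 2.62e-09 by edgeR), as did *Cma1* (1.79, from 1.12 to 3.80 CPM) and *Hdc*, the histidine decarboxylase of mast cells (1.301, from 1.70 to 4.175 CPM), 3 of 4 tested mast cell markers. Among macrophage markers *Fcgr1*, an Fc receptor, rose by 0.38 and *Cd68*, a lysosomal glycoprotein, by 0.48, 2 of 5. *Cd14* was at -0.48 (adjusted p = 0.187 by edgeR), and the 4 others tested were above 0. Over all transcripts tested in KO, 11.8% were called in either direction and 5.83% higher. Of 10 feeder fibroblast transcripts, 1 of *Dcn* (decorin) fell by 0.41 in KO, and the called *Pdgfra* transcript named above fell too. On the other side of 0 lay 5 of the 10, with 0 called higher, and the list's median was -0.0368. Of 3 tested germ cell markers, *Prdm1* fell by 2.48, from 1.85 to 0.312 CPM (adjusted p = 0.00147 by edgeR). At this low level DESeq2 gave it no adjusted p (unadjusted p = 3e-04), and it called 0 of these markers.

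In Over, *Cpa3* fell by 0.305 and *Cd68* rose by 0.51, while 0 of 10 feeder fibroblast transcripts were called by edgeR, with 5 at an unadjusted p under 0.05 and 1 called by DESeq2. Over all transcripts tested there, edgeR called 1.65%. *Ifitm3*, an interferon-induced membrane protein used as a germ cell marker, fell by 0.31. These values are descriptions of the whole culture, and how the members' levels relate to them was not tested.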
